A study of Mus musculus with 6 samples.

Results

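Interferon-induced genes were followed across the cells around dermal collecting lymphatic vessels of C57BL/6 mice at 3 ages. The list was drawn up by gene symbol and holds 37 genes in 8 role groups, of which 36 were measured among 31017 gene symbols, and Mx2 was not analysed here. The vessels run from the inguinal to the axillary lymph node, were made visible with the dye Evans Blue, and were freed of fat, digested with collagenase, elastase and dispase and sequenced as single cells from the 3′ end of their transcripts. Each age had 1 library labelled male and 1 labelled female, 6 in all, and the ages were young (6 weeks), middle-aged (12 months) and aged (18 months). No group carried a transgene or received a drug beyond anaesthesia and the dye. The aged mice came from another supplier, so age and source cannot be told apart, and the number of mice behind each library is not stated in the sources used here, so p-values measure only the spread between these libraries.

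Interferons are secreted proteins that warn cells of infection. Type I and type III interferons signal through a complex that holds Stat2 and Irf9 and binds the interferon-stimulated response element (ISRE), and interferon gamma acts through the gamma-activated site (GAS). The induced genes encode proteins that sense or destroy foreign RNA, stop viruses from entering or leaving a cell, attack the vacuoles of intracellular microbes, and strengthen or end the signal itself. In tissue, macrophages are known both as sources of interferon and as cells that respond to it.

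The libraries held 9616652 to 28921825 unique molecular identifiers (UMIs, each standing for 1 captured molecule) over all their barcodes. After barcodes with fewer than 500 detected genes or more than 10% mitochondrial counts were left out, 24488 cells remained, 999 to 8228 per library. The median cell held 2536 to 7508 UMIs, and 0 to 12 cell barcodes were shared by any pair of libraries. Cells were assigned to classes by marker genes, none of them on the list, and 2603 barcodes with markers of more than 1 lineage and 1063 with too few markers stayed out. The library labelled middle-aged female went against its label: it held 0.254 UMIs per 1000000 UMIs (CPM) of Xist and 193 CPM of Ddx3y, whereas the library labelled middle-aged male held 1402 CPM of Xist and no Ddx3y. The library labelled middle-aged female also stood apart in other ways, with the fewest cells (999), the highest median depth and 143 neutrophils (14.3% of its cells), against 1 to 70 neutrophils in the other libraries. Many results of listed genes that rest on it are given with and without it. Differences of lymphatic endothelium from the other classes, where it is 1 of 3 libraries, are given for single genes only with it.

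The listed genes share more than their induction. Of the 36 measured genes, 20 lie in 8 groups of neighbours on 7 chromosomes of the mouse genome (GRCm38), such as Ifit2, Ifit3, Ifit3b and Ifit1 within 99.3 kb on chromosome 19, Ifi207, Ifi204 and Ifi205 within 308 kb on chromosome 1, Rsad2 and Cmpk2 within 37.1 kb on chromosome 12, and Oas2, Oas3 and Oas1a within 177 kb on chromosome 5. Promoter sequence from RefSeq (GRCm38.p6) matched 29 of the 36 genes by symbol, with 35 windows of 250 bases before to 50 bases after a transcription start. The ISRE core was searched as GAAA, any 2 bases and GAAA again, on either strand, and the GAS core as TTCNNNGAA, which reads the same on both strands. At least 1 ISRE core was found for 17 of the 29 genes (58.6%), or in 48.6% of their windows, against 1131 of all 32851 windows (3.44%). At least 1 GAS core was found for 8 of the 29 (27.6%), or in 22.9% of their windows, against 2726 of all windows (8.30%). A match of letters describes the sequence and is not a site of binding, and no match says only that these letters are not in the window.

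**Figure D1:**
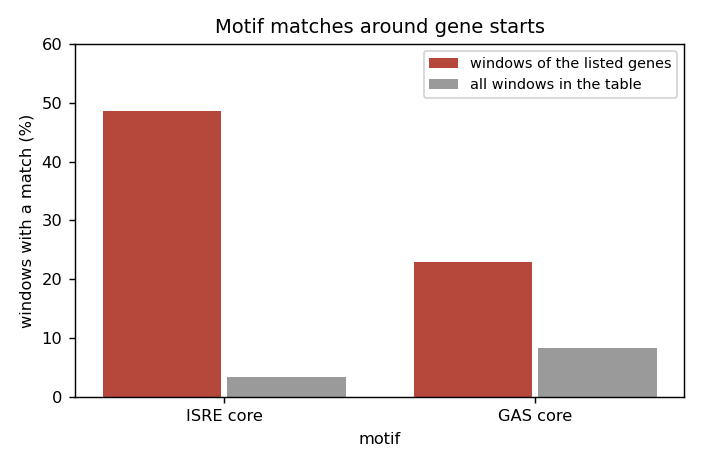
Share of promoter windows with a match (percent, vertical axis) for the ISRE core and the GAS core, for windows of the listed genes (red) and for all windows in the table (grey). The ISRE core was in 48.6% of the listed genes' windows against 3.44% of all windows, and the GAS core in 22.9% against 8.30%.

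The promoters of 5 genes are shown because results turn on these genes, or, for Oasl2, because no match was found. Each runs 5′ to 3′ on the strand of its gene from 170 bases before to 30 bases into the transcript, with matches of the ISRE or GAS core in capitals: Rsad2 at chr12:26456423-26456622 (minus strand), Ifit1 at chr19:34640719-34640918 (plus strand), Ifit3 at chr19:34583359-34583558 (plus strand), Ifitm3 at chr7:141010715-141010914 (minus strand) and Oasl2 at chr5:114896764-114896963 (plus strand).
Rsad2: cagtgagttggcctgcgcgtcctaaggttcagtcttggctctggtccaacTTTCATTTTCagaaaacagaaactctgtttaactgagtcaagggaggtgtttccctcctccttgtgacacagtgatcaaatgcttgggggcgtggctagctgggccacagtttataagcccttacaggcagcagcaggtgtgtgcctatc
Ifit1: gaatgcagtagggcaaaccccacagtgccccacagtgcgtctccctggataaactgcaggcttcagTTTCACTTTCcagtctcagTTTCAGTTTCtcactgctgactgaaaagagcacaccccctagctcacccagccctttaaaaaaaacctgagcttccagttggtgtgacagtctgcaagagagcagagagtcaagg
Ifit3: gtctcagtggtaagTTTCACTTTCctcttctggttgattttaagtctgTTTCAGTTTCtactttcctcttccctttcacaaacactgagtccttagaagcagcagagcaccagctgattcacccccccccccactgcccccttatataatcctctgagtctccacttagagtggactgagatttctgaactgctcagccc
Ifitm3: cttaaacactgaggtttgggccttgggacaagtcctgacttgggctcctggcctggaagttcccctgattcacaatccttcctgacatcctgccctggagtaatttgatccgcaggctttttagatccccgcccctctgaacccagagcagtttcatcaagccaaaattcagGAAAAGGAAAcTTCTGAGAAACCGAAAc
Oasl2: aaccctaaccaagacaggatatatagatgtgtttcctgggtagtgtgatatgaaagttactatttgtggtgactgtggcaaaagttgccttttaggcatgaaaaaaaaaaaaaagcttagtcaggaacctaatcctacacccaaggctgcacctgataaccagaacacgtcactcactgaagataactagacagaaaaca
In Ifit1 and Ifit3 a pair of ISRE cores stands upstream of the start, beginning 104 and 85 bases before it in Ifit1 and 156 and 122 bases before it in Ifit3, and Rsad2 has 1 that begins 120 bases before it. In Ifitm3 the 2 ISRE cores and the GAS core between them lie just inside the transcript, and the GAS core and the second ISRE core share letters.

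Together the listed genes made up the largest share of all UMIs in macrophages, at 0.967% ± 0.199 (SD, n = 6 libraries). Fibroblasts followed with 0.60% ± 0.112 (n = 6), monocytes with 0.561% ± 0.105 (n = 5), lymphatic endothelium with 0.558% ± 0.024 (n = 3) and blood endothelium with 0.511% ± 0.055 (n = 6). These 4 neighbours in the order differed by less than their spread. Neutrophils held 0.365% ± 0.196 (n = 3), conventional dendritic cells 0.341% ± 0.066 (n = 4) and smooth muscle 0.217% ± 0.088 (n = 4). NK cells, epithelium, T cells and B cells were lowest of these 12 classes with at least 3 libraries, between 0.107% and 0.128%, and overlapped. Mast cells, with 2 libraries, held 0.0849% and 0.0994%. A share is weighted toward the genes with most UMIs: Ifitm3, Ifi27l2a and Bst2 alone gave 25.3% to 68.9% of the listed genes' UMIs in macrophages and 82.4% to 89.0% in lymphatic endothelium. Without these 3 genes the share was 0.447% ± 0.272 in macrophages, 0.301% ± 0.078 in fibroblasts, 0.209% ± 0.036 in blood endothelium and 0.0823% ± 0.0218 in lymphatic endothelium.

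**Figure D2:**
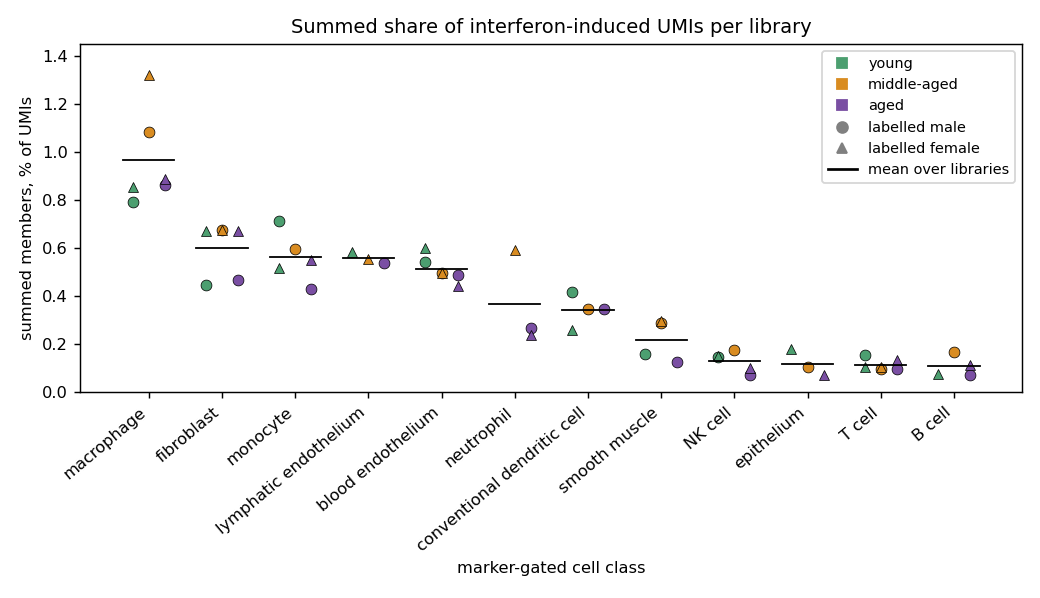
Summed share of the 36 genes in the UMIs of each cell class (percent, vertical axis), 1 point per library with at least 20 cells of the class, colour for age, shape for the labelled sex and a line for the mean over libraries. Macrophages lie between 0.792% and 1.32%, above every fibroblast library (0.445% to 0.675%), and both middle-aged macrophage points lie above the 4 others.

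Each class was then compared with the mean of the 11 other classes, gene by gene, on UMIs summed per library and class, with the library as a block (edgeR quasi-likelihood test, adjusted over 8376 genes, called at an adjusted p under 0.05). Of the listed genes 33 had enough counts for this test. In macrophages 28 of the 33 were called higher, against 34.2% of all genes, and 1 lower, against 11.8%. In fibroblasts 24 were higher (39.3% of all genes) and none lower (14%). In blood endothelium 20 were higher (28.7%) and 4 lower (11.8%). In neutrophils 18 were higher (19.1%) and 1 lower (19.6%), and in monocytes 15 were higher (24.4%) and none lower (5.35%). In lymphatic endothelium 4 were higher and 9 lower (35.6% of all genes called in either direction), in smooth muscle 2 and 13 (34.7%) and in epithelium 2 and 13 (42.3%). Of all genes 10.5%, 13.9% and 12.7% were called lower in these classes, in the same order. T cells had 2 higher and 7 lower (33.3%), B cells none higher and 7 lower (23.5%), NK cells none higher and 4 lower (15.8%), and conventional dendritic cells 6 higher and 1 lower (24.7%). Counted in either direction, the listed genes were called in these 4 classes about as often as all genes or less. Of all genes 11.5%, 8.86%, 5.1% and 4.48% were called lower there, in the same order, and 21.8%, 14.6%, 10.7% and 20.3% higher. In T, B and NK cells the listed genes were thus called lower more often, and higher less often, than all genes. The median log2 difference of the 33 genes was 2.17 in macrophages (0.17 over all genes), 1.49 in neutrophils (-0.65), 1.04 in fibroblasts (0.22), 1.01 in blood endothelium (0.11), 1.13 in monocytes (0.14), -0.99 in lymphatic endothelium (0.07) and -1.61 in smooth muscle (-0.02). Without the library labelled middle-aged female the neutrophils kept 2 libraries and the count of genes called fell to 7, and in smooth muscle it fell to 7. Without young male it was 9 in monocytes, without young female 3 in B cells and 1 in NK cells, and 1 in NK cells also without aged male. The share of all genes called with a library left out is not given here, so these falls are not results about the listed genes alone. The 33 genes had passed a filter on low counts, so the counts in this paragraph describe only the genes abundant enough to test.

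**Figure D3:**
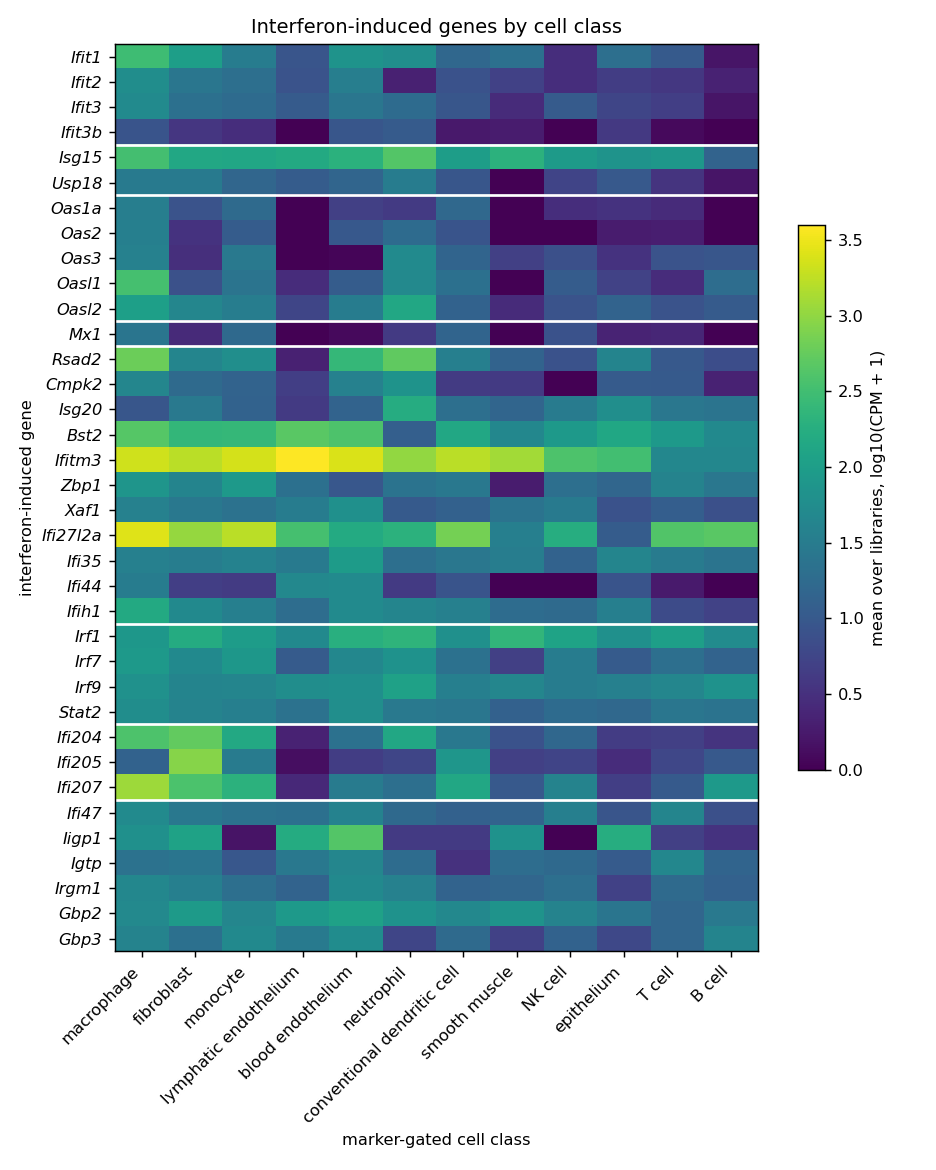
Mean level over libraries (log10 of CPM + 1, colour) of each of the 36 genes (down the page, white lines between role groups) in 12 cell classes (across, ordered by summed share). Rsad2 and Oasl1 are bright in macrophages and Ifi205 in fibroblasts, and the IFIT and OAS genes are dark in lymphatic endothelium, where Ifitm3 and Bst2 are brightest.

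The IFIT genes encode proteins that grip foreign RNA by its uncapped or incompletely capped end, and Ifit2 and Ifit3 partner with Ifit1. In macrophages Ifit1 stood at 300 ± 491 CPM (SD, n = 6) against 30.8 CPM in the mean of the other classes, a log2 difference of 3.62 ± 0.36 (SE, adjusted p = 7.8e-13). The large SD came from 1 library, described below, without which the log2 difference was 3.26. Ifit3 stood at 51.4 ± 11.8 CPM in macrophages against 10.7 CPM in the other classes and was higher by 2.92 ± 0.32 on the log2 scale (adjusted p = 1.3e-11). In lymphatic endothelium Ifit1 stood at 7.87 ± 3.26 CPM (n = 3) and was called lower (-2.89 ± 1.12, adjusted p = 0.038). Ifit2 was also called higher in macrophages (57.8 ± 23.1 CPM, 3.23 ± 0.28). In neutrophils it stood at 1.15 ± 1.99 CPM and was not called (-1.44 ± 1.62), and Ifit3 was called higher there by 2.51 ± 0.83, a call lost without the library labelled middle-aged female. Ifit3b had too few counts to test, and its highest mean was 9.93 ± 10.4 CPM in neutrophils. Ifit3 and Ifit3b are near copies of each other, and how reads that match both were counted is not given in the sources used here.

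Isg15, a ubiquitin-like protein that is joined to other proteins, and Usp18, which removes it and also blocks the type I interferon receptor, reached their highest means in neutrophils, but on uneven libraries. Isg15 in neutrophils was 704 CPM in the library labelled middle-aged female, 454 CPM in aged male and 131 CPM in aged female, and the class stood above the others by 2.17 ± 0.36 (adjusted p = 1.7e-06). Without the library labelled middle-aged female the difference was 1.80 and was still called. Usp18 rested on that library, with 25 UMIs there against 1 and 0 in the aged libraries, and lost its call without it. Fibroblasts (29.4 ± 8.5 CPM) and macrophages (29.2 ± 8.4 CPM) held Usp18 at levels that did not differ beyond their spread, and both were called higher than the other classes.

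The OAS genes sense double-stranded RNA, and Oas1a, Oas2 and Oas3 belong to a family whose active enzymes make oligoadenylates that switch on RNase L. In mice, Oasl1 is known to hold back the translation of Irf7. Oasl1 was called higher in macrophages by 5.42 ± 0.27 on the log2 scale (adjusted p = 7.7e-24), at 344 ± 360 CPM against 13.2 CPM in the other classes, the largest such difference of a listed gene there. Without the library labelled middle-aged female it was 5.17, below the 5.37 of Ifi207. It was 48.6 ± 71.9 CPM in neutrophils and 6.89 ± 3.61 CPM in fibroblasts. Oasl2 and Oas3 were highest in neutrophils (144 ± 107 CPM and 52.4 ± 30.5 CPM, n = 3) ahead of macrophages (107 ± 18 CPM and 37.4 ± 16.3 CPM), a difference within the spread of the neutrophil libraries. Both were called higher in neutrophils than in the other classes, by 3.98 and 5.13 on the log2 scale. Without the library labelled middle-aged female these were 2.89 and 3.90, still called. In lymphatic endothelium Oas1a, Oas2, Oas3 and Mx1 had no UMI in any of 3 libraries, whose total in that class was 109219 to 873972 UMIs each. Mx1, a dynamin-like GTPase that is defective in most inbred laboratory mice, C57BL/6 among them, was highest in macrophages at 24.3 ± 12.8 CPM.

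The other antiviral effectors differed in the class where they were highest. Rsad2 (viperin, an enzyme that makes a chain-ending nucleotide) was high in macrophages (614 ± 854 CPM), neutrophils (523 ± 652 CPM) and blood endothelium (244 ± 85 CPM) and called higher in each, by 4.20 ± 0.30, 4.09 ± 0.51 and 3.57 ± 0.37 on the log2 scale. Without the library labelled middle-aged female the mean was 272 ± 187 CPM in macrophages (n = 5) and 150 ± 109 CPM in neutrophils (n = 2), and both calls held. In lymphatic endothelium Rsad2 had 0, 3 and 0 UMIs in the young female, labelled middle-aged female and aged male libraries (1.14 ± 1.98 CPM), and was called lower by edgeR (adjusted p = 4.3e-05). The 6 blood endothelium libraries held 114 to 345 CPM, with no overlap. Ifitm3, a membrane protein that stops viruses from fusing with the cell, was highest in lymphatic endothelium, at 3562 CPM in young female, 4049 CPM in the library labelled middle-aged female and 4206 CPM in aged male. These lay above the 1896 to 2899 CPM of the 6 blood endothelium libraries, and above the other classes by 2.47 ± 0.28 (adjusted p = 1.1e-10). Bst2 (tetherin, which holds budding virus at the cell surface) was likewise high in lymphatic endothelium (479 ± 54 CPM), macrophages (437 ± 151 CPM) and blood endothelium (388 ± 115 CPM), ranges that overlap, and stood at 11.3 ± 2.8 CPM in neutrophils, where it was the 1 gene called lower (-2.89 ± 0.66, adjusted p = 2.9e-04). Ifi27l2a, a small protein of the mitochondrial membrane, was highest in macrophages (2600 ± 868 CPM) and monocytes (1672 ± 678 CPM) and was called lower in blood endothelium (155 ± 64 CPM, -1.03 ± 0.30). Ifih1, which encodes the RNA sensor MDA5, was highest in macrophages (150 ± 106 CPM), above blood endothelium (51.9 ± 15.9 CPM) in 6 of 6 libraries. Xaf1, an antagonist of the apoptosis inhibitor XIAP, was higher in blood endothelium than in macrophages in 6 of 6 libraries (63.0 ± 7.3 against 37.6 ± 8.6 CPM), and Isg20, an RNA-degrading exonuclease, was the 1 gene called lower in macrophages (8.23 ± 2.11 CPM, -1.32 ± 0.30).

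The remaining effectors were Cmpk2, a mitochondrial nucleotide kinase and neighbour of Rsad2, Zbp1, a sensor of Z-form nucleic acids that can start cell death, Ifi35 and Ifi44. Cmpk2 was called higher in neutrophils (68.9 ± 96.8 CPM, 3.87 ± 0.55, and 1.70 and not called without the library labelled middle-aged female) and in macrophages (43.9 ± 39.0 CPM, 2.53 ± 0.33). Zbp1 was highest in monocytes (86.9 ± 48.8 CPM) and macrophages (74.1 ± 29.9 CPM), which overlap, and was called lower in blood endothelium (8.31 ± 4.33 CPM, -2.26 ± 0.60). Ifi44 stood at 51.6 ± 23.2 CPM in blood endothelium and 46.2 ± 31.8 CPM in lymphatic endothelium and was called higher in both, by 4.52 ± 0.55 and 4.75 ± 0.69, as were Iigp1, Ifitm3 and Bst2. Ifi35 was highest in blood endothelium (94.3 ± 38 CPM, 1.51 ± 0.22) and was not called in macrophages (0.30 ± 0.20).

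Among the transcription factors, Irf7, which drives the later waves of type I interferon, was called higher in macrophages (85.6 ± 28.3 CPM, 2.17 ± 0.23), fibroblasts (50.2 ± 19.6 CPM, 1.34 ± 0.24), monocytes (79.2 ± 86.1 CPM, 1.90 ± 0.32) and neutrophils (67.2 ± 32.0 CPM, 2.77 ± 0.50, lost without the library labelled middle-aged female), and lower in smooth muscle (-4.54 ± 1.08). Stat2 was called higher in macrophages, fibroblasts and blood endothelium, by 0.84 to 1.37. Irf1, a factor that interferon gamma induces strongly, showed no call in macrophages (78.5 ± 19.7 CPM, -0.33 ± 0.18, adjusted p = 0.13), was higher in fibroblasts, blood endothelium, neutrophils (1.65 ± 0.28) and smooth muscle, and was lower in lymphatic endothelium (49.7 ± 11.8 CPM, -1.28 ± 0.31). Its difference in neutrophils was 0.62 without the library labelled middle-aged female (adjusted p = 0.299) and was not called.

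Irf9, the DNA-binding subunit of the type I interferon complex, was highest in neutrophils (113 ± 76 CPM, 2.03 ± 0.34, and 0.65 and not called without the library labelled middle-aged female) and was called higher in macrophages (64.4 ± 8.1 CPM) by only 0.57 ± 0.18.

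The p200 genes, a family of proteins with DNA-binding domains on chromosome 1, were not all highest in the same class, though they are neighbours. Ifi205 was a fibroblast gene, with 573 and 1130 CPM in young, 660 and 1261 CPM in middle-aged and 683 and 863 CPM in aged libraries. The mean over 6 libraries was 862 ± 278 CPM, the next class, conventional dendritic cells, had 75.3 CPM, and the log2 difference was 7.25 ± 0.19 (adjusted p = 7.5e-38). Ifi207, within 308 kb of it, was instead highest in macrophages (1153 ± 498 CPM), above fibroblasts (381 ± 65 CPM) in 6 of 6 libraries. Ifi204 was at 540 ± 163 CPM in fibroblasts and 390 ± 137 CPM in macrophages, and was the higher in fibroblasts in 6 of 6 libraries, though the 2 ranges overlap. All 3 were lower in lymphatic endothelium, by 4.54 to 4.87 on the log2 scale, with 0 to 3 UMIs per library. Family members are alike in sequence, so reads may have been split between copies.

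The listed GTPases linked to defence against microbes in vacuoles are mostly known as targets of interferon gamma. Their highest means were in blood endothelium for Iigp1, Gbp2, Gbp3 and Irgm1, in T cells for Igtp and in macrophages for Ifi47. Iigp1 stood in blood endothelium at 422 ± 174 CPM, and every one of the 6 libraries (196 to 716 CPM) was above the 63.8 ± 21.4 CPM mean of macrophages, with a log2 difference from the other classes of 5.23 ± 0.23 (adjusted p = 1.6e-25). It was also called higher in lymphatic endothelium (163 ± 70 CPM, 3.66 ± 0.35). Gbp2 was highest in blood endothelium (114 ± 28 CPM) and fibroblasts (91.2 ± 28.4 CPM), which overlap, and was not called in macrophages (0.09 ± 0.22). Igtp was highest in T cells (45 ± 17 CPM) and blood endothelium (44.0 ± 16.9 CPM), and was called higher in both. Ifi47 was called higher in macrophages (52.4 ± 11.4 CPM, 1.58 ± 0.20) and in T cells (42.1 ± 18.6 CPM, 0.99 ± 0.30). Irgm1 (50.4 ± 29.8 CPM) and Gbp3 (55.0 ± 23.5 CPM) had their highest means in blood endothelium and were called higher there and in macrophages. Igtp overlaps Irgm2 on the same strand, as Irf9 overlaps Rnf31 and Ifi47 overlaps Olfr56, so a part of their counts could belong to the neighbour.

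Among the remaining classes, conventional dendritic cells were called higher for Ifi205 (75.3 ± 66.0 CPM, 3.36 ± 0.37), Oas1a (15.6 ± 9.8 CPM, 3.12 ± 0.66) and Ifi207 (141 ± 72 CPM, 2.14 ± 0.36). These positive log2 differences are means of differences on the log scale, and fibroblasts or macrophages held each of the 3 at higher CPM. Monocytes, with 15 genes called higher, were led by Oas1a (3.35 ± 0.57), Ifi204 (3.0 ± 0.27) and Oas3 (2.88 ± 0.48). Epithelium was called higher for Iigp1 (173 ± 202 CPM, 3.28 ± 0.33) and Isg20 (58.3 ± 13.9 CPM, 1.73 ± 0.32), and smooth muscle for Iigp1 (2.60 ± 0.46) and Irf1 (0.88 ± 0.25). Ifitm3, the listed gene of highest mean CPM in all classes but macrophages, T cells and B cells, was scarce in lymphocytes, at 45.7 ± 33.4 CPM in T cells (-4.67 ± 0.38) and 44.8 ± 63.4 CPM in B cells (-4.20 ± 0.48). B cells were also lower for Isg15 (12.8 ± 4.1 CPM, -3.53 ± 0.69). Usp18, Oasl1 and Mx1 had no UMI in any smooth muscle library.

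Age was compared in the classes with at least 5 libraries, with 2 libraries at each age in macrophages and fibroblasts. No listed gene was called in macrophages in any of the 3 age comparisons, nor was any other gene (0 of 9506 genes tested, 0%, by edgeR). At an unadjusted p under 0.05 edgeR gave 9 of the 36 genes in middle-aged against young (1158 genes of all), 6 in aged against middle-aged (854) and 1 in aged against young (333). DESeq2, which gave an adjusted p to only a part of the genes, called 3 of 16 listed genes (5.91% of all), 1 of 23 (3.18%) and 0 of 36 (0.118%). The 9 were all higher in middle-aged macrophages, and the 6 all lower in aged than in middle-aged macrophages, which share the same middle-aged libraries. The dissociation-stress list summed to 16690 and 17596 CPM in young, 23418 and 20107 CPM in middle-aged and 21587 and 13819 CPM in aged macrophages, so that both middle-aged libraries lay above both young ones here too, and its part in these values was not tested.

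Rsad2 in macrophages was 167 and 171 CPM in the young libraries, 396 and 2323 CPM in the libraries labelled middle-aged male and female, and 536 and 88.7 CPM in the aged libraries, the one labelled male first in each pair here and below. Both middle-aged libraries lay above both young ones, and the aged pair spanned the young pair. Rsad2 was higher in middle-aged than in young by 3.30 ± 0.97 (SE, log2, adjusted p = 0.367, not called), and by 1.44 without the library labelled middle-aged female. Ifit1 was 58.3 and 37.6 CPM in young, 91.6 and 1291 CPM in middle-aged and 251 and 73.1 CPM in aged macrophages. The library labelled middle-aged female again exceeded all others, and its difference from young was 4.13 ± 1.12 with it and 1.14 without it. Isg15 was 158 and 138 CPM in young, 267 and 934 CPM in middle-aged and 314 and 182 CPM in aged macrophages, and both older pairs lay above the young pair. Its difference between middle-aged and young was 2.29 ± 0.58 (adjusted p = 0.347), or 1.06 without that library. Oasl1 was 113 and 95.3 CPM in young, 357 and 1032 CPM in middle-aged and 362 and 103 CPM in aged macrophages. It had the smallest p of the list in this comparison (3.01 ± 0.69, adjusted p = 0.34, and 1.98 without that library). DESeq2 called Isg15 (adjusted p = 5.0e-04), Ifih1 (0.011) and Oasl1 (0.027), and edgeR without its filter on low counts called 8 of 36 genes (2.1% of all).

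On normalised CPM, 12 of the 36 genes had both middle-aged macrophage libraries above both young ones, against 24% of all genes, and 5 had both below, against 27.8%. The 12 were Ifit1, Isg15, Usp18, Oasl1, Oasl2, Rsad2, Cmpk2, Ifih1, Irf9, Ifi204, Ifi207 and Irgm1, and the 5 were Isg20, Zbp1, Ifi35, Igtp and Gbp2. In aged against middle-aged macrophages none had both libraries above (21.3% of all genes) and 7 had both below (18.3%). The smallest p there belonged to Cmpk2 (-1.68 ± 0.58, adjusted p = 0.505), which DESeq2 called, to Ifi204 (-0.95 ± 0.35) and to Oasl1 (-1.78 ± 0.66). Without the library labelled middle-aged female the log2 difference was -0.40 for Cmpk2, -0.47 for Ifi204 and -0.75 for Oasl1. In aged against young macrophages 4 had both above (15.7%) and 5 both below (16.7%). Gbp2 had the smallest p, at 27.5 and 39.8 CPM in aged against 52.9 and 93.3 CPM in young macrophages (-1.10 ± 0.33, adjusted p = 1.00), followed by Oasl1 (1.23 ± 0.66) and Isg20 (-0.75 ± 0.40).

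**Figure D4:**
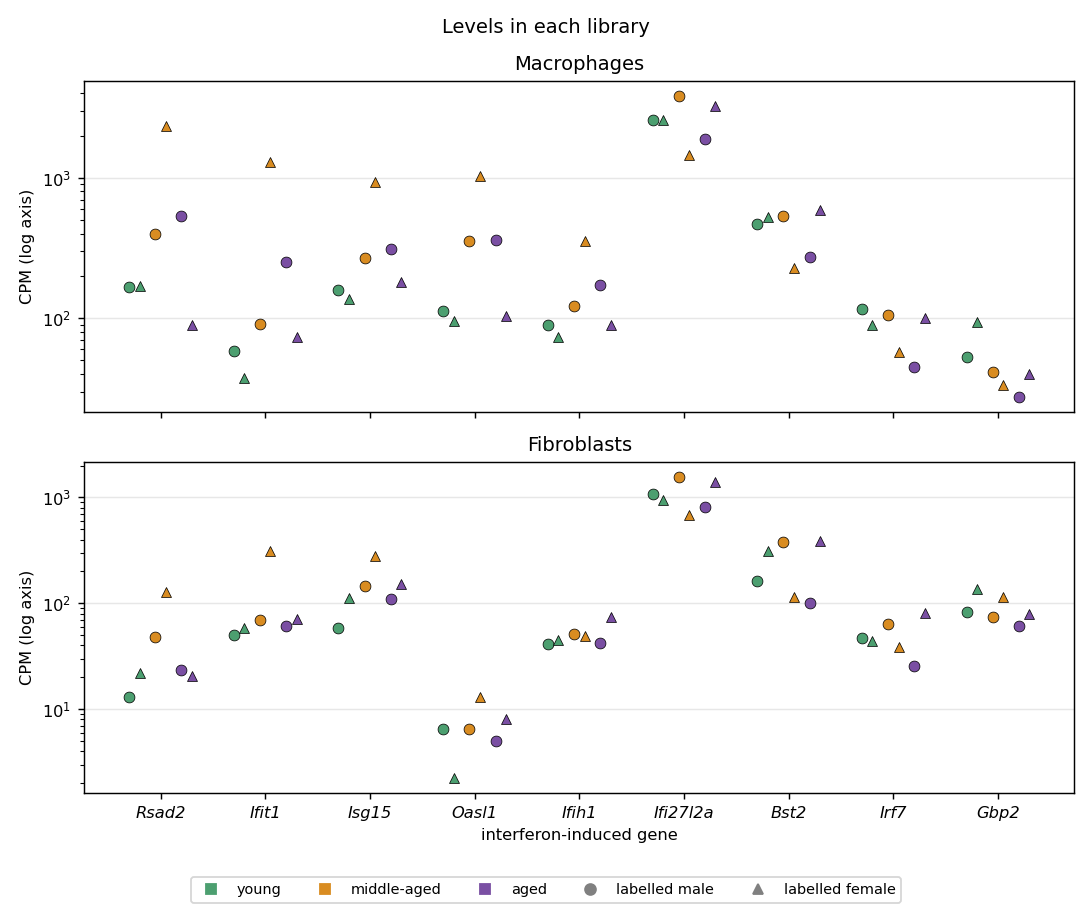
Level in each library (CPM, log axis) of 9 listed genes in macrophages (upper panel) and fibroblasts (lower panel), coloured by age and shaped by labelled sex. For Rsad2, Ifit1, Isg15 and Oasl1 the library labelled middle-aged female is the highest point in macrophages (1291 CPM of Ifit1 against 37.6 to 251 CPM elsewhere), and for Ifi27l2a and Bst2 it is the lowest.

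The library labelled middle-aged female rested on 90 macrophages and 631520 UMIs. There 12 of the 36 genes exceeded 2 times the median of the other 5 libraries, against 10.2% of all genes, and 1 was below 0.5 times it (17.2%). The ratios were 22.7 for Ifit1, 16.9 for Rsad2, 11.3 for Oasl1, 6.63 for Isg15, 5.65 for Cmpk2, 4.94 for Ifih1 and 4.36 for Irgm1. Other listed genes did not follow: Bst2 stood at 0.532 and Ifi27l2a at 0.698 of the median, with 226 CPM of Bst2 against 273 to 593 CPM and 1452 CPM of Ifi27l2a against 1894 to 3823 CPM in the other libraries. In its fibroblasts 6 of 36 genes exceeded 2 times the median (7.01% of all genes) and 3 were below 0.5 times it (12.0%). The fibroblasts of the library labelled middle-aged male also had 6 genes over 2 times the median (4.29%), and 0 below 0.5 times it (2.63%). Markers of neutrophils in the macrophages of the library labelled middle-aged female summed to 464 CPM, with 2 of those markers at 0. They summed to 480 CPM in aged male and 128 to 241 CPM in the others. Rsad2 in the free RNA of the library labelled middle-aged female was 122 CPM against 15.6 to 72.5 CPM. Markers of fibroblasts in its macrophages summed to 93.4 CPM, within the 57.0 to 310 CPM of the others. The part of these values in the result was not tested. With free RNA subtracted the counts of called genes in macrophages stayed at 0.

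In fibroblasts none of the 36 genes, nor any of 11875 genes tested (0%), was called by edgeR at any age. At an unadjusted p under 0.05 edgeR gave 6 (1042 genes of all), 4 (523) and 2 (687) in middle-aged against young, aged against middle-aged and aged against young. DESeq2 called Rsad2 in the first 2 (adjusted p = 1.65e-03 and 0.0282, with 0.575% and 0.203% of all genes called) and none in the third (0.643%). edgeR without the filter on low counts called 4 (2.22%), 2 (0.506%) and none (1.76%). Rsad2 was 13.0 and 22 CPM in young, 48.5 and 129 CPM in middle-aged and 23.6 and 20.8 CPM in aged fibroblasts. Both middle-aged libraries lay above the 4 others. The difference was 2.51 ± 0.51 for middle-aged against young (adjusted p = 0.553) and -2.19 ± 0.51 for aged against middle-aged (adjusted p = 0.906), or 1.56 and -1.24 without the library labelled middle-aged female. Isg15 was 58.8 and 111 CPM in young, 146 and 282 CPM in middle-aged and 109 and 152 CPM in aged fibroblasts, so that the aged pair overlapped the middle-aged pair. Ifit1 was 50.3 and 59.0 CPM in young, 69.6 and 313 CPM in middle-aged and 61.0 and 70.5 CPM in aged fibroblasts, and its difference of 1.97 ± 0.63 for middle-aged against young became 0.42 without that library. On normalised CPM 14 of the 36 genes had both middle-aged libraries above both young ones (22% of all genes) and none both below (23.7%). In aged against middle-aged fibroblasts 1 gene, Ifit2, had both above (18%) and 12 had both below (16.6%). In aged against young 4 had both above (16.5%) and 4 both below (18.6%), and the smallest p belonged to Usp18 (0.71 ± 0.27), Cmpk2 (0.91 ± 0.36) and Gbp2 (-0.71 ± 0.33), none called. The change with age was also set between the classes, as macrophages minus fibroblasts. edgeR called none of the 36 genes in any comparison (0% of 10227 genes). At an unadjusted p under 0.05 it gave 4 (584 genes of all), 1 (415) and 1 (508). Without the filter on low counts edgeR called Ifit1 and Oasl1 in middle-aged against young (0.529% of all genes) and Ifit1 in aged against young (0.752%).

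The summed share in macrophages was 0.792% and 0.856% in young, 1.08% and 1.32% in middle-aged and 0.864% and 0.888% in aged libraries. Both middle-aged values lay above the 4 others, whose pairs were close. Without Ifitm3, Ifi27l2a and Bst2 the share was 0.298% and 0.296% in young, 0.389% and 0.987% in middle-aged and 0.432% and 0.276% in aged libraries. The middle-aged mean of 0.688% is thus 0.389% without the library labelled middle-aged female, a value between those of the aged pair. In fibroblasts the share was 0.445% and 0.672% in young, 0.675% and 0.674% in middle-aged and 0.467% and 0.669% in aged libraries, and the ages overlapped.

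Single macrophages were set at 1 depth by thinning each to 1500 UMIs and leaving out shallower cells (3 to 500 per library). A Rsad2 UMI was then found in 14.3% and 17.1% of young, 29.6% and 47.1% of middle-aged and 20.5% and 10.6% of aged macrophages, and before thinning in 17.8% and 22.4%, 34.9% and 56.7%, and 29.0% and 25.1%. T cells gave 0% to 3.70% after the same thinning and 0% to 3.70% before it. The median macrophage held 1866 to 7071.5 UMIs, depending on the library, and the median T cell 1258.5 to 5488. Ifit1 was found more often in the cells that had Rsad2. After thinning, an Ifit1 UMI was found in 65.9% of macrophages with Rsad2 against 4.35% of those without in the library labelled middle-aged female, in 41.5% against 4.62% in aged male, and in 12.2% to 23.2% against 3.30% to 9.12% in the other 4 libraries. Fibroblasts showed the same order in all 6 libraries, from 21.4% against 7.67% in aged female to 84.0% against 11.5% in the library labelled middle-aged female, where 25 fibroblasts had Rsad2. Ifi27l2a was found in most macrophages of either kind, in 54.3% to 90.5% of those without Rsad2 and in 74.5% to 97.0% of those with it. Before thinning the UMIs were also unevenly spread: the 9 macrophages with most Rsad2 in the library labelled middle-aged female held 59.1% of its 1467 Rsad2 UMIs, and 1 cell alone had 189, while the 10% of macrophages with most in the other libraries held 60.9% to 83.2%. These shares were not set at 1 depth. Before thinning only 17.8% to 34.9% of macrophages in the other libraries had a Rsad2 UMI, so the shares depend on depth and level.

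Macrophages were also grouped without use of the listed genes. Of the clusters formed, number 5 was led by the chemokines Ccl4 and Ccl3, the metallothionein Mt2, Thbd, Il10 and Hmox1, and number 4 by Txnip, Chp2 and Maf, with the lectin genes Cd209f and Cd209g. Cluster 5 held 77 of the 90 macrophages of the library labelled middle-aged female (85.6%) and 64.2% of those of the library labelled middle-aged male, against 8.74% to 42.3% in the young and aged libraries, and cluster 4 held 7.78% and 28.4% of them against 52.6% to 65.3%. Rsad2 stood in cluster 5 at 245 and 265 CPM in young, 537 CPM in the library labelled middle-aged male and 1044 and 503 CPM in aged libraries, against 161, 160, 173, 152 and 93.8 CPM in cluster 4 of the same libraries. It was higher in cluster 5 in all 5 libraries with 20 cells in both clusters, as were Oasl1 and Ifi207 (3 of 36 genes, against 12.7% of 5135 genes). Mx1, Irf9 and Gbp3 were lower in all 5 (3 of 36, against 21.2%). Isg15 was higher in 4 of 5 and Ifit1 in 2 of 5. Within cluster 5 alone Rsad2 was 2676 CPM and Ifit1 1467 CPM in the library labelled middle-aged female, against 245 to 1044 CPM and 24.3 to 514 CPM in the other libraries. Expression in the dissociation-stress list was 20427 CPM in its cluster 5 against 17108 to 24432 CPM in the others. These are descriptions of clusters, with no test.

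**Figure D5:**
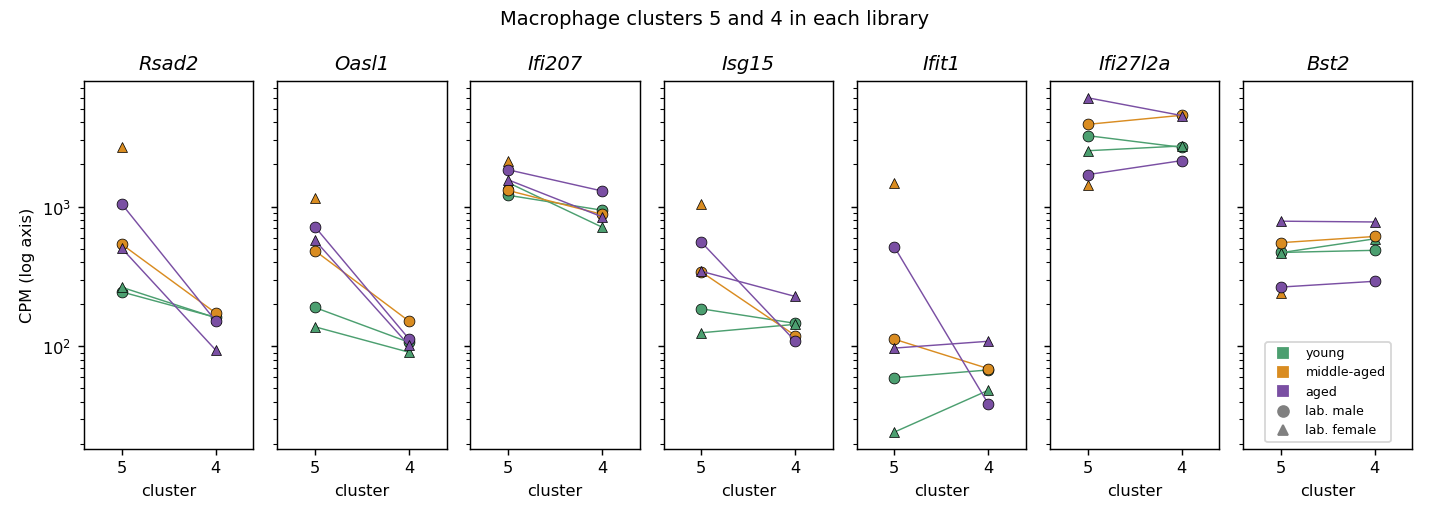
Level (CPM, log axis) of 7 listed genes in macrophage clusters 5 (left) and 4 (right), lines joining the clusters of 1 library, coloured by age and shaped by labelled sex. Rsad2, Oasl1 and Ifi207 are higher in cluster 5 than in cluster 4 along all 5 lines, Ifi27l2a and Bst2 show no common slope, and the library labelled middle-aged female has only 7 cells in cluster 4 and no point there.

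In blood endothelium 22 listed genes could be tested for age and edgeR called none, against 0% to 0.195% of 4103 genes. At an unadjusted p under 0.05 it gave 4 (387 genes of all), 4 (303) and 3 (383) in middle-aged against young, aged against middle-aged and aged against young. DESeq2 called none, but gave an adjusted p to only 1, 22 and 3 of them. Ifi27l2a was 226 and 189 CPM in young, 87.8 and 66.4 CPM in middle-aged and 196 and 167 CPM in aged blood endothelium. Both middle-aged libraries lay below the 4 others, and the difference from young was -1.53 ± 0.32 (adjusted p = 0.188). edgeR called Ifi27l2a without the filter on low counts (-1.56, adjusted p = 0.0153). It was also called without young female (-1.69), aged male (-1.53) or aged female (-1.52), fits that leave 1 library at an age. With at least 50 cells per sum only the aged female sum, of 41 cells, dropped out, so that call is the same fit as the one without aged female. No other setting called it in this comparison. Iigp1 was 424 and 716 CPM in young, 457 and 428 CPM in middle-aged and 196 and 313 CPM in aged blood endothelium. Both aged libraries lay below the 4 others, by -1.19 ± 0.34 against young (adjusted p = 0.205, or 0.038 without the filter on low counts), while Stat2 was 1.39 ± 0.45 higher (adjusted p = 0.294). Rsad2, so uneven in macrophages, ranged from 114 to 345 CPM over the 6 libraries with 217 CPM in the library labelled middle-aged female. On normalised CPM 2 genes had both middle-aged libraries above both young ones (21.3%) and 11 both below (21.6%), 3 had both aged libraries above both middle-aged ones (18.4%) and 3 below (16.5%), and 2 had both aged libraries above both young ones (19.3%) and 7 below (19%).

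With the settings used throughout, edgeR called listed genes with age in NK cells and in no other class tested. There were 5 libraries of 22 to 54 cells, 4 listed genes passed the filter, and 2 were called lower, in aged against middle-aged (1.37% of 1822 genes called, 1.21% lower) and in aged against young (1.7%, 1.43% lower), with none in middle-aged against young (0.384%). Ifitm3 was 373 and 490 CPM in young, 923 CPM in the library labelled middle-aged male and 143 and 0 CPM in aged NK cells, on 38, 38, 69, 7 and 0 UMIs. Both aged libraries lay below the 3 others, and the fitted difference was -2.72 ± 0.59 against young (adjusted p = 1.13e-03) and -3.75 ± 0.62 against middle-aged (adjusted p = 1.58e-06). Ifi27l2a was 363 and 194 CPM in young, 281 CPM in middle-aged and 0 and 22.2 CPM in aged NK cells, on 37, 15, 21, 0 and 1 UMIs, at -4.73 ± 0.88 against young (adjusted p = 3.56e-05) and -4.63 ± 0.99 against middle-aged (adjusted p = 5.45e-04). With 0 or 1 UMI in a library the size of such a difference depends on the prior count of the fit. Both genes passed the filter on low counts with most of their UMIs in the young and middle-aged sums. A gene held mainly by the aged sums, the smallest at 48977 and 45063 UMIs, could less easily enter the test. The direction of these calls is thus not free of the filter. DESeq2 called none, the call of Ifitm3 against young was lost without aged female or either young library, and that of Ifi27l2a against young without either young library. The comparison with middle-aged rests on 1 middle-aged library, and both calls were lost without young female. Markers of macrophages in the NK sums summed to 61.3 and 22.2 CPM in aged, against 265 and 232 CPM in young libraries and 120 CPM in middle-aged, and markers of fibroblasts summed to 40.8 and 0 CPM in aged, against 265 and 245 CPM in young and 66.9 CPM in middle-aged. Their part in the result was not tested. T cells (9 genes tested) and monocytes (25 tested) gave no call with age by edgeR or DESeq2 at these settings. In monocytes Bst2 was 157 and 94.6 CPM in aged female and male, against 284 and 501 CPM in young female and male libraries, at -1.59 ± 0.39 (adjusted p = 0.688). With labelled sex as a replicate block edgeR called it (-1.51, adjusted p = 2.1e-03, also with the middle-aged pair exchanged), as it did without young female (-1.93) and without the filter on low counts (-1.65). Irf7 in monocytes, middle-aged against young, was -2.45 ± 0.90 (adjusted p = 0.751) and was called with that block (-2.78, adjusted p = 1.93e-03), but not with the pair exchanged. Without young female Irf7 was called there (-3.17) and in aged against young (-2.29). The share of all genes called in monocytes at these alternative settings is not given here. Its levels were 231 and 52.4 CPM in young, 25.3 CPM in middle-aged and 29.1 and 58.0 CPM in aged monocytes, the middle-aged and 1 aged value on 6 and 4 UMIs. Of all genes, edgeR called 0.0907% in T cells in middle-aged against young (0.0302% higher and 0.0605% lower), 0% in aged against middle-aged and 0.121% in aged against young, of 3308 tested, and 0% of 4920 in monocytes. At an unadjusted p under 0.05 edgeR gave at most 1 listed gene in T cells (84 to 353 of all genes) and at most 4 in monocytes (199 to 300 of all genes).

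Lymphatic endothelium had 1 library of at least 20 cells at each age, so that no test of age was made. Ifi27l2a was 723 CPM in young female on 79 UMIs, 149 CPM in the library labelled middle-aged female and 146 CPM in aged male. Iigp1 was 201, 206 and 82.0 CPM and Isg15 137, 151 and 160 CPM in the same libraries. The young library held 20 lymphatic endothelial cells.

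The interferons themselves were nearly absent. Ifnb1, the gene of interferon beta, had 63 UMIs in 38 of the 24488 cells and Ifng, that of interferon gamma, 228 UMIs in 114 cells. Ifna1, Ifna2, Ifna4, Ifna5, Ifnl2 and Ifnl3 had none, which allows up to 3 UMIs each. The receptor chains were found widely: Ifnar1 and Ifnar2 at 54.9 ± 13.8 and 113 ± 15 CPM in macrophages, 28.3 ± 3.8 and 64.5 ± 9.2 CPM in fibroblasts and 22.4 ± 16.6 and 99.6 ± 33.8 CPM in lymphatic endothelium, and Ifngr1 at 145 ± 55, 157 ± 28 and 77.0 ± 44.3 CPM. In lymphatic endothelium Ifngr1 was called lower than in the other classes (-1.41 ± 0.28). Of 73 further genes of the interferon pathway, 55 could be tested between classes. In macrophages 38 were higher (69.1%, against 34.2% of all genes) and 3 lower, led by the RNA sensor Tlr7 (6.87 ± 0.23), Ddx60, Irf5 and Ly6e. In neutrophils 28 were higher (50.9%, against 19.1%), among them Ifitm1 (7.50 ± 0.44) and Ifitm2 (3.30 ± 0.27), and 6 were lower. This neutrophil count was not taken again without the library labelled middle-aged female, which gave 143 of the neutrophils. In monocytes 27 were higher (49.1%, against 24.4%) and 1 lower. In blood endothelium 24 were higher (43.6%, against 28.7%), among them the chemokine gene Cxcl9 (6.83 ± 0.38), Gbp7 and Gbp4, and 5 were lower. In fibroblasts 19 were higher, a share of 34.5% below the 39.3% of all genes, and 10 lower (18.2%, against 14%). In lymphatic endothelium 5 were higher and 19 lower (34.5%, against 10.5%), among them the nuclease gene Samhd1 (-2.10 ± 0.30), and in smooth muscle 1 and 25 (45.5% lower, against 13.9%). With age edgeR called none of them in fibroblasts (58 tested), macrophages (59), blood endothelium (37), monocytes (43) or T cells (28), and in NK cells (16) 1, Ifitm2, which was lower in aged than in young (-2.28 ± 0.56, adjusted p = 6.38e-03) and than in middle-aged cells (-2.93 ± 0.61, adjusted p = 5.32e-04).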

How the data were processed

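Each of the 6 libraries was deposited by the authors as a matrix of raw UMI counts per gene and barcode. Cell Ranger 3.0.2, Seurat and the mm10 build are named in the submitters' processing notes, and how reads matching several genes were handled is not given in the sources used here. The cells kept had 500 or more detected genes, with mitochondrial UMIs no higher than 10%. Cell classes came from marker genes with no listed gene among them, and the rule that assigns cells was set after the data were seen. Barcodes with markers of several lineages were left out in place of doublet calls, and Scrublet, run through scanpy 1.11.5, was an alternative. Total counts per library, given in the report, set the precision, and intervals and floors cover counting error only.

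UMIs were summed per library and class (at least 20 cells) and tested with edgeR 4.0.16 (R 4.3.3): TMM scaling, filterByExpr and the quasi-likelihood F test, with Benjamini-Hochberg adjustment over all genes tested and a threshold of 0.05. Age was fitted without a replicate block, and classes with the library as a block. SEs are the log2 difference divided by the root of F. Levels are CPM, which are not scaled by gene length because only 3′ ends were counted, so levels of different genes compare only loosely. A log2 difference that involves libraries at 0 UMIs depends on the prior count. Values described as normalised CPM carry the TMM factors. DESeq2 1.42.0 and the other alternatives are given in the closing section. The fits were also run on simulated counts drawn without a sex or library effect. The outcome is not given here, and nothing is drawn from it. In bulk sums of a class, fewer responding cells and less RNA per cell cannot be told apart.

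The members and lists were chosen with earlier results of these data known. Named genes were, for each class, the 5 of highest mean CPM and the 3 with the largest called difference, for each age comparison up to 6 called genes per direction or else the 3 of smallest p, and always Ifit1, Ifit3, Isg15, Rsad2, Oasl2, Irf7, Stat2, Irf1, Ifi27l2a, Ifitm3, Bst2, Gbp2, Igtp and Usp18. Other genes were named after their values were seen.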

Additional observations from a re-analysis of the deposited data

Results flagged for a closer look

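Isg15 had estimates of opposite sign in different classes. In middle-aged against young libraries its log2 difference was -0.20 ± 0.29 (SE) in blood endothelium, 1.50 ± 0.42 in fibroblasts and 2.29 ± 0.58 in macrophages. Both middle-aged libraries lay below both young ones in blood endothelium and above them in the other classes, a gap of -1.69 to fibroblasts and -2.49 to macrophages. The blood endothelium value was within its error (unadjusted p = 0.498, edgeR). Without the library labelled middle-aged female the values were -0.14 in blood endothelium, 0.87 in fibroblasts and 1.06 in macrophages, and the gaps -1.004 and -1.20. In aged against young it was -0.51 ± 0.31 in blood endothelium, 0.56 ± 0.41 in fibroblasts and 0.79 ± 0.56 in macrophages, a gap of -1.07 and -1.30. Irgm1 in aged against young was -1.09 ± 0.56 in blood endothelium and 0.09 ± 0.50 in macrophages, a gap of -1.18. These differences between classes were not tested. Cmpk2 in aged against young was -0.06 ± 0.56 in macrophages and 0.91 ± 0.36 in fibroblasts, a gap of -0.97, and edgeR's test of the difference did not call it (adjusted p = 1).

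Barcodes outside the comparisons also carried the listed genes. They made up 0.433% of the UMIs of the 2603 barcodes with markers of several lineages, whose median was 3882 UMIs, and 0.353% of the UMIs of the 1063 barcodes with too few markers, whose median was 1936 UMIs.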

How the results depend on the processing

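Counts of listed genes called with age, 0 in fibroblasts and macrophages with edgeR, became 1 (middle-aged against young) and 1 (aged against middle-aged) in fibroblasts and 3 and 1 in macrophages with DESeq2. With no filter on low counts they became 4 and 2 in fibroblasts, 8, 6 and 1 (aged against young) in macrophages, and 2 and 1 for macrophages minus fibroblasts (middle-aged and aged against young). In the other classes together the count of 4 became 0 with DESeq2, with at least 1000 genes per barcode and with cluster classes, 7 with no filter, 2 with sums thinned to 1 depth and 1 with at least 50 cells per sum, which was Ifi27l2a in blood endothelium and not an NK cell gene. The replicate numbers follow the labelled sex. Same-numbered libraries of different ages deviated from their group means with correlations of -0.61 to 0.36, and with the middle-aged pair exchanged of 0.36 to 0.61 in fibroblasts and -0.13 to 0.39 in macrophages. With labelled sex as a replicate block no count in fibroblasts or macrophages moved from 0, except that exchanging the middle-aged pair gave 1 in macrophages, middle-aged against young. In the other classes the block gave 6 calls, or 5 with the pair exchanged, the additions being Bst2 and Irf7, or Bst2 alone, in monocytes. The share of all genes called with the block, and in the other classes at each alternative setting, is not given here. These counts are therefore not results about the listed genes alone.

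Class counts summed to 181, and to 107 with thinned sums, which hold fewer UMIs. With thinned sums they were 2 in B cells, 12 in blood endothelium, 8 in lymphatic endothelium, 10 in neutrophils, 2 in NK cells, 6 in smooth muscle and 4 in T cells. With at least 50 cells they were 4 in B cells, 0 in NK cells, 4 in smooth muscle and 5 in T cells. They were 22 in lymphatic endothelium with cluster classes, 2 in NK cells with library totals only, 1 in NK cells and 8 in smooth muscle with free RNA subtracted, and 16 in T cells with DESeq2. Signs turned for Ifi27l2a in NK cells with at least 50 cells (0.016), Bst2 in monocytes with at least 1000 genes (-0.066), and for Gbp2 and Ifit3 in neutrophils without the library labelled middle-aged female, whose values over the libraries left out in turn ran from -0.19 to 1.75 and from -6.06 to 3.11. For these class counts the share of all genes called at each setting is not given here. A count that moved is therefore not a result about the listed genes alone. The cause of these shifts was not tested.

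Leaving out 1 library gave 0 to 0 calls with age in fibroblasts, 0 to 1 in macrophages (1 in middle-aged against young without aged male or aged female) and 0 to 5 in the other classes. It gave 3 to 8 in B cells, 1 to 4 in NK cells, 7 to 10 in T cells, 17 to 25 in blood endothelium, 5 to 8 in conventional dendritic cells, 12 to 16 in epithelium, 22 to 25 in fibroblasts, 9 to 12 in lymphatic endothelium, 28 to 30 in macrophages, 9 to 17 in monocytes, 7 to 19 in neutrophils, 7 to 14 in smooth muscle and 156 to 172 over all classes. These ranges also stand without the share of all genes called.

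The summed share of middle-aged fibroblasts (mean 0.674%) was 0.679% with at least 1000 genes, 0.676% with at most 5% mitochondrial UMIs or Scrublet calls removed, 0.696% with cluster classes and 0.677% with free RNA subtracted, and that of aged macrophages (0.876%) was 0.900% with cluster classes. Without Ifitm3, Ifi27l2a and Bst2 the shares were 0.283%, 0.349% and 0.272% in young, middle-aged and aged fibroblasts and 0.297%, 0.688% and 0.354% in macrophages, where the middle-aged value was 0.389% without the library labelled middle-aged female.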

Other observations

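Across 55 sums of a library and a class, the genes outside the list whose log2 CPM ran most like that of the listed genes summed, with class means taken out of both, among 5891 genes, were Tap1 (Pearson r = 0.575), a peptide transporter of antigen presentation, H2-T23 (0.572), Stom (0.521), Creld2 (0.521) and Il6ra (0.514). Without Ifitm3, Ifi27l2a and Bst2 in the sum they were Parp14 (0.781), Clec2d (0.542), Socs1 (0.542), a feedback inhibitor of cytokine signalling, Rnf213 (0.534) and Il1f9 (0.524). Sums of 1 library share its depth and those of 1 class its cell type, so these are descriptions.

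Bst2 in fibroblasts was 162 and 311 CPM in young, 381 and 114 CPM in middle-aged and 101 and 384 CPM in aged libraries. The 3 lowest libraries were those with Ddx3y and almost no Xist. In macrophages the lowest 3 of 6 were the same libraries, at 466, 226 and 273 CPM, against 528, 534 and 593 CPM. This was seen in the data and was not tested.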
